A study of Sus scrofa with 6 samples.

Results

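The genes described here are 10 transcription factors of the naive pluripotent state, KLF2, KLF4, KLF5, KLF17, TFCP2L1, ESRRB, TBX3, NR5A2, NR0B1 and GBX2. They were chosen by symbol from the 31908 genes of the deposited table, and each symbol matched 1 gene. The libraries came from pig embryonic stem cells (Sus scrofa), whose messenger RNA was captured with oligo(dT) beads and sequenced as stranded pairs of 151 bp reads. There were 6 libraries, 2 from each of 3 lines, all labelled wild type (WT) and all grown in the medium labelled FIW. PA_1 and PA_3 are lines of parthenogenetic embryos, which develop from an egg without a sperm genome, and IVF_1 is a line from in vitro fertilisation. Each line is a single derivation and only 1 is fertilised, so every comparison is between lines, and embryo origin and line cannot be told apart.

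Naive pluripotency is the state of the early epiblast, and in mouse embryonic stem cells it is held by a network of these factors working beside POU5F1, SOX2 and NANOG. In mouse, LIF acting through STAT3 feeds KLF4, TFCP2L1 and GBX2, while release of the repressor TCF7L1 raises ESRRB and TFCP2L1, and the factors back each other up. Human naive cells share KLF4, KLF5 and TFCP2L1 and add KLF17, a factor of the human preimplantation embryo. When cells leave the naive state they pass into a formative and then a primed state, marked by factors such as OTX2 and POU3F1.

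Library totals were 15248306 to 28575817 counts, and the mitochondrial genome took 7.671% to 9.652% of the counts in PA_1 and IVF_1 and 12.15% to 12.23% in PA_3. The label of embryonic stem cells was checked against epiblast markers. POU5F1, the core pluripotency factor, averaged 999 TPM in PA_1, 1069 in PA_3 and 1252 in IVF_1, where TPM is the authors' read count per transcript length, scaled to the same sum in every library. All 8 measured epiblast markers were present in every library, and their summed level was 3034 to 3221 TPM in PA_1, 2468 to 2544 in PA_3 and 4215 to 4318 in IVF_1. Of the 8, 6 were called lower and 0 higher than IVF_1 in each parthenogenetic line, where 16.1% (PA_1) and 26.2% (PA_3) of all genes tested were called lower. NANOG, another core factor, averaged 56.9 TPM in PA_1, 16.2 in PA_3 and 139 in IVF_1. The defining trophoblast markers CDX2 and HAND1, the mesoderm markers MIXL1 and MSGN1 and the germ cell marker DAZL had 0 counts in every library. Other markers on these lists were present: the summed level of the mesoderm list was 10.98 to 20.66 TPM, and that of the germ cell list 32.99 to 81.07 TPM, most of it KIT. The trophoblast list is given beside KLF5. The neural list summed to 579.5 to 862.2 TPM, and its eye and forebrain factor PAX6 averaged 49.9 TPM in PA_1, 0.185 in PA_3 and 32.1 in IVF_1. The hypoblast and endoderm list summed to 105.4 to 159.7 TPM, and its factor FOXA2 averaged 3.33, 14.6 and 3.92 TPM in the same lines. The fibroblast list summed to 478.7 to 677.7 TPM, and 10, 10 and 9 of its 15 measured genes reached 1 TPM in PA_1, PA_3 and IVF_1. The endothelium and blood list summed to 10.43 to 18.33 TPM. PAX6, FOXA2 and KIT were chosen after their values were seen, and the part of such markers in the results was not tested.

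Of the 10 naive-state factors, 3 made up nearly all of the signal. KLF4, KLF5 and ESRRB together held 93.8% to 96.3% of the reads counted for the 10 genes in each library. KLF2, TFCP2L1, NR5A2, TBX3 and GBX2 were near the limit of detection, and KLF17 and NR0B1 had no count in any library. ESRRB was higher in both parthenogenetic lines than in IVF_1 and differed between them, and KLF5 was highest in IVF_1. KLF4 and KLF5 differed less securely between the parthenogenetic lines. TFCP2L1 passed the filter on low counts only through PA_3, where it was high, so its difference is conditional on that.

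**Figure D1:**
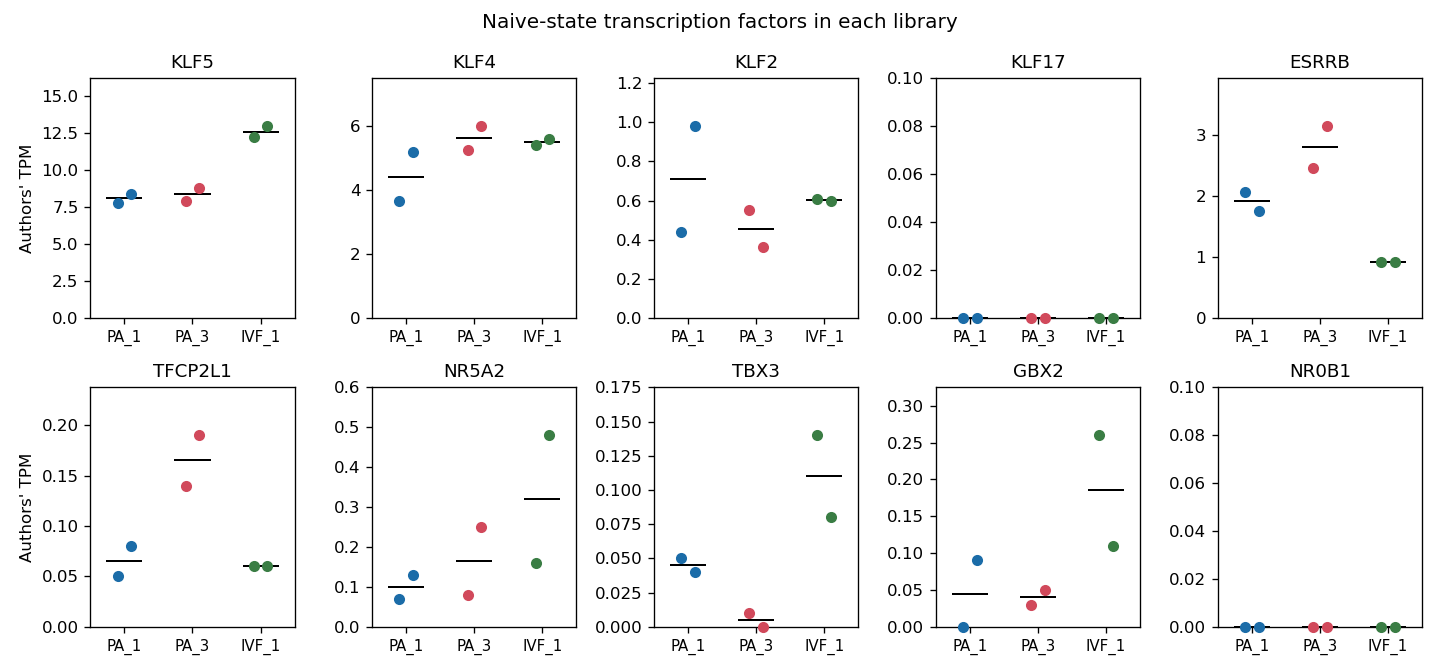
Level of each of the 10 naive-state factors in each library, in authors' TPM on a linear axis that differs between panels (points, libraries; bars, mean of the 2 libraries of a line). KLF5, KLF4 and ESRRB lie between 0.92 and 12.93 TPM, the other detected factors stay under 1 TPM, and KLF17 and NR0B1 are at 0.

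By TPM the order KLF5, KLF4, ESRRB, KLF2 was the same in all 3 lines, and no neighbours in it overlapped between libraries of a line. KLF5 stood above 59.7%, 62.7% and 66.4% of 21280 protein-coding genes in PA_1, PA_3 and IVF_1, and KLF4 above 53.1%, 57.4% and 55.7%. ESRRB stood above 46.3%, 50.4% and 42.1% of them. These levels were modest, since the median of the protein-coding genes above 0 was 7.30 to 8.89 TPM. Below KLF2 the order was less certain. In PA_1 the libraries of NR5A2, TFCP2L1, TBX3 and GBX2 overlapped with their neighbours, GBX2 also with the 0 of KLF17 and NR0B1, in PA_3 those of TFCP2L1 and NR5A2 overlapped with each other, and TBX3 with the 0 of KLF17 and NR0B1, and in IVF_1 those of NR5A2, GBX2 and TBX3 did.

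The 4 Krüppel-like zinc finger factors ranged from the most abundant of the 10 to undetected. KLF5 sustains self-renewal of mouse embryonic stem cells and also acts in the trophectoderm. Its gene (ENSSSCG00000035101) lies on the plus strand of chromosome 11 at 45369797 to 45388314 of build Sscrofa11.1. KLF5 had 385 and 268 counts in the PA_1 libraries, 394 and 487 in those of PA_3, and 353 and 342 in IVF_1. These gave 7.78 and 8.37 TPM in the PA_1 libraries, 7.91 and 8.79 in PA_3, and 12.19 and 12.93 in IVF_1. Both IVF_1 libraries were above all 4 parthenogenetic libraries, while PA_1 and PA_3 overlapped on this scale.

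Differences between lines were tested on the counts with edgeR's quasi-likelihood test, with all 6 libraries in a single fit and Benjamini-Hochberg adjustment over 15197 genes. Levels below in CPM are counts scaled to the library total after TMM scaling, which balances the libraries on the bulk of their genes, with the SD of 2 libraries (n = 2). KLF5 averaged 13.84 ± 1.105 CPM in PA_1 and 17.54 ± 1.418 in PA_3, against 21.86 ± 0.7411 in IVF_1, and on this scale no line overlapped another. It was lower in PA_1 than in IVF_1 by 0.67 on the log2 scale (log2 fold change -0.67, SE 0.12, adjusted p = 0.00036), and its adjusted p was 1.6e-06 to 0.01 over 11 alternative analyses.

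The smaller KLF5 differences were less secure. PA_3 was lower than IVF_1 (log2 fold change -0.32, SE 0.11, adjusted p = 0.027), with an adjusted p of 0.0054 to 0.22 over 11 alternatives. This call was lost with DESeq2 (0.084), without PA_3 replicate 1 (0.22) and without IVF_1 replicate 1 (0.089) or 2 (0.16). PA_1 was lower than PA_3 (log2 fold change -0.35, SE 0.11, adjusted p = 0.023), with an adjusted p of 0.006 to 0.22 over 12 alternatives. That call was lost with DESeq2 (0.083), without PA_1 replicate 1 (0.083) and without PA_3 replicate 2 (0.22). Separate cultures are not stated for the libraries of each line, so these p-values may measure technical spread only. In bulk RNA, fewer cells that carry a transcript and less of it per cell cannot be told apart.

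KLF5 is also a trophectoderm factor, so the trophoblast markers are given beside it. Their summed level was 705.1 to 740.6 TPM in PA_1, 706 to 801.5 in PA_3 and 1562 to 1706 in IVF_1. Of 13 measured, 7 could be tested, and 6 were lower in PA_1 than in IVF_1 and 5 were lower in PA_3, beside 16.1% and 26.2% of all genes tested. The keratins KRT8 and KRT18 made up most of the sum, whereas CDX2, HAND1 and PPAG3 were at 0. The part of these markers in the KLF5 difference was not tested.

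KLF4 is the reprogramming factor that in mouse acts downstream of LIF and STAT3. The gene (ENSSSCG00000005437) lies on the minus strand of chromosome 1 at 248604820 to 248609574. KLF4 had 153 and 142 counts in the PA_1 libraries, 227 and 286 in PA_3, and 128 and 130 in IVF_1. After scaling these gave 5.189 and 7.745 CPM in the PA_1 libraries, 9.528 and 10.89 in PA_3, and 7.736 and 8.508 in IVF_1. On this scale the PA_3 libraries were above the other 4, and the higher PA_1 library overlapped with IVF_1. By TPM, however, PA_3 and IVF_1 overlapped. PA_3 replicate 1 had 5.25 TPM, below both IVF_1 libraries (5.42 and 5.61), while PA_3 replicate 2 was above both. The line means were 5.625 TPM in PA_3 and 5.515 in IVF_1. The PA_1 libraries, at 3.67 and 5.18 TPM, were below the other 4.

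PA_1 had less KLF4 than PA_3, a 1.62-fold difference (log2 fold change -0.69, SE 0.17, adjusted p = 0.0036), with an adjusted p of 1.9e-05 to 0.051 over 12 alternatives. That call was lost without PA_3 replicate 2 (log2 fold change -0.59, adjusted p = 0.051). Against IVF_1, KLF4 did not pass the test in either parthenogenetic line. The value was -0.36 in PA_1 (95% interval -0.74 to 0.02, adjusted p = 0.14), but without PA_1 replicate 2 it was -0.63 and called (0.0045; 0.0045 to 0.81 over 11 alternatives). It was 0.33 in PA_3 (95% interval -0.03 to 0.69, adjusted p = 0.11), and called with only the libraries of PA_3 and IVF_1 in the fit (0.026; 0.026 to 0.41 over 11 alternatives).

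KLF2, which in mouse is stabilised when ERK signalling is blocked, was scarce. Its gene (ENSSSCG00000038911) lies on the minus strand of chromosome 2 at 61270714 to 61273139. KLF2 had 11 and 16 counts in the PA_1 libraries, 14 and 10 in PA_3, and 9 and 8 in IVF_1, or 0.36 to 0.98 TPM. The lines overlapped, and the widest gap was between the libraries of PA_1. No comparison passed the test, and the 95% intervals ran from -1.01 to 1.24 for PA_1 against IVF_1, from -1.29 to 0.99 for PA_3 against IVF_1 and from -0.77 to 1.30 for PA_1 against PA_3 (log2). Differences within these intervals were not detectable at this depth.

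KLF17, a marker of the human naive state, had 0 counts in every library. The gene model (ENSSSCG00000024191) lies on the minus strand of chromosome 6 at 167176346 to 167202193. For a line in which neither library had a read, the upper limit was set at 3 counts, which is 0.0641 CPM for PA_1, 0.0587 for PA_3 and 0.0942 for IVF_1, and 0.0231 CPM over all 6 libraries. These limits cover counting error only, because reads that carry no molecular identifier can be copies of the same molecule.

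Among the 26 KLF and SP genes that were measured, KLF5 stood at position 9 in PA_1, 8 in PA_3 and 6 in IVF_1 by TPM. KLF4 stood at position 15, 12 and 14, KLF2 at 21 in each line and KLF17 last. The family was led by broadly expressed factors. SP3, which binds GC boxes in many promoters, averaged 84.7 TPM in PA_1, 59.8 in PA_3 and 84.8 in IVF_1. KLF10, a factor induced by TGF-beta, averaged 35.2, 30.7 and 26.9 TPM, and SP1 34.3, 18.4 and 43.2 TPM. SP3 and KLF10 were chosen after their values were seen.

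**Figure D2:**
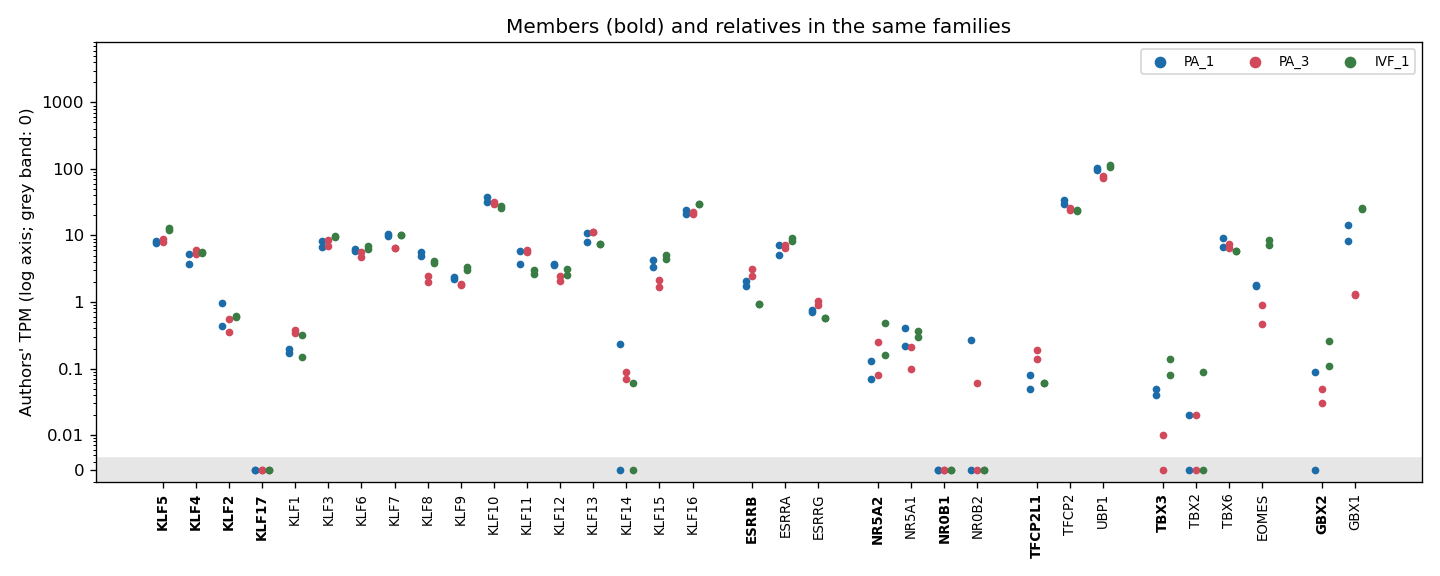
Levels of the naive-state factors (bold) and of relatives from the same families in each library, in authors' TPM on a log axis, with 0 in the grey band (points, libraries, coloured by line). KLF10 and KLF16 lie above the 3 detected naive-state KLF factors, TFCP2 and UBP1 lie over 100-fold above TFCP2L1, and GBX1 lies above GBX2 in every library.

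ESRRB, an orphan nuclear receptor that in mouse can take the place of NANOG in several settings, differed most clearly between the lines. Its gene (ENSSSCG00000002388) lies on the plus strand of chromosome 7 at 99514168 to 99699011. ESRRB had 136 and 75 counts in the PA_1 libraries, 163 and 232 in PA_3, and 35 and 32 in IVF_1. These gave 2.07 and 1.76 TPM in PA_1, 2.46 and 3.15 in PA_3, and 0.92 in each IVF_1 library. All 4 parthenogenetic libraries were above both IVF_1 libraries, and PA_3 was above PA_1, with no overlap.

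On the CPM scale ESRRB averaged 4.351 ± 0.3685 in PA_1 and 7.838 ± 1.408 in PA_3, against 2.105 ± 0.01488 in IVF_1 (SD, n = 2). It was 2.08-fold higher in PA_1 than in IVF_1 (log2 fold change 1.06, SE 0.22, adjusted p = 0.0017) and 3.72-fold higher in PA_3 (log2 fold change 1.90, SE 0.21, adjusted p = 1.2e-06). It was also lower in PA_1 than in PA_3 (log2 fold change -0.84, SE 0.17, adjusted p = 0.0011). ESRRB passed the test in each of these comparisons under every alternative run, with adjusted p-values up to 0.026, 0.00011 and 0.044.

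The ratio of ESRRB to KLF5 was highest in the PA_3 libraries and lowest in those of IVF_1. ESRRB had 0.266 and 0.210 times the TPM of KLF5 in PA_1, 0.311 and 0.358 times in PA_3, and 0.0755 and 0.0712 times in IVF_1. Its relative ESRRA, a receptor of mitochondrial and energy metabolism genes, was higher than ESRRB in 6 of 6 libraries. The ratio of ESRRA to ESRRB was 3.22 in PA_1, 2.42 in PA_3 and 9.39 in IVF_1.

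The remaining nuclear receptors were low or undetected. NR5A2 (LRH-1), which drives POU5F1 in the mouse epiblast, is encoded on the plus strand of chromosome 10 at 22715735 to 22866904 (ENSSSCG00000024975). It had 5 and 6 counts in the PA_1 libraries, 6 and 15 in PA_3, and 5 and 12 in IVF_1, and the lines overlapped. None of its comparisons passed the test: the log2 fold changes were -1.19 (95% interval -2.60 to 0.23) for PA_1 against IVF_1, -0.36 (-1.60 to 0.89) for PA_3 against IVF_1 and -0.83 (-2.19 to 0.53) for PA_1 against PA_3. These values rest on single libraries. PA_1 against IVF_1 gave -0.37 without IVF_1 replicate 2, -1.73 without IVF_1 replicate 1 and -0.70 without PA_1 replicate 1, and PA_1 against PA_3 gave -0.11 without PA_3 replicate 2, -0.35 without PA_1 replicate 1, -1.26 without PA_1 replicate 2 and -1.27 without PA_3 replicate 1. Its paralog NR5A1, the steroidogenic factor, had 22, 15 and 17 counts in PA_1, PA_3 and IVF_1. NR0B1 (DAX1), a receptor without a DNA-binding domain of the usual kind that partners POU5F1 and ESRRB in mouse, is encoded on the minus strand of chromosome X at 26117868 to 26122995 (ENSSSCG00000012199). It had 0 counts in every library, with the same limits as KLF17.

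TFCP2L1 is a CP2-family factor that in mouse and human links LIF and STAT3 signalling to the naive network. Its gene (ENSSSCG00000015732) lies on the plus strand of chromosome 15 at 30072172 to 30137094. TFCP2L1 had 6 and 6 counts in the PA_1 libraries, 17 and 26 in PA_3, and 4 and 4 in IVF_1, or 0.05 to 0.19 TPM. Both PA_3 libraries were above the other 4, which overlapped, and the gene passed the filter on low counts only through PA_3, where it was high. Its tests after the filter are therefore conditional on that difference. The fit without the filter, in which any gene with a count was tested, called it in PA_3 against IVF_1 (adjusted p = 0.011) and in PA_1 against PA_3 (0.0069).

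With the filter, TFCP2L1 was 3.35-fold higher in PA_3 than in IVF_1 (log2 fold change 1.74, SE 0.53, 95% interval 0.62 to 2.87, adjusted p = 0.011), with an adjusted p of 0.0045 to 0.12 over 11 alternatives. This call was lost with DESeq2 (0.11), without IVF_1 replicate 1 (0.089) or 2 (0.068) and without PA_3 replicate 2 (0.12). PA_1 was lower than PA_3 (log2 fold change -1.74, SE 0.48, adjusted p = 0.009), with an adjusted p of 0.0069 to 0.13 over 12 alternatives. That call was lost with DESeq2 (0.13), without PA_1 replicate 1 (0.089) and without PA_3 replicate 2 (0.13). PA_1 and IVF_1 had 12 and 8 counts in all, and their difference was 0.01 (SE 0.69, adjusted p = 0.99). The ubiquitous relatives TFCP2 and UBP1 were far more abundant. TFCP2 averaged 31.7, 25.2 and 23.7 TPM in PA_1, PA_3 and IVF_1, or 488, 153 and 395 times TFCP2L1, and UBP1 averaged 99.1, 76.4 and 110 TPM.

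TBX3 and GBX2 were too low for the filter, and their values are given as counts. TBX3, a T-box factor that in mouse sustains NANOG expression and also acts in extraembryonic endoderm, lies on the plus strand of chromosome 14 at 37582822 to 37596767 (ENSSSCG00000009865). TBX3 had 4 and 2 counts in the PA_1 libraries, 1 and 0 in PA_3, and 6 and 3 in IVF_1. By CPM the 3 lines did not overlap, with IVF_1 highest and PA_3 lowest. The ratio of PA_3 to IVF_1 was 0.0693 with a 95% counting interval of 0.00158 to 0.50, which rests on 1 count in PA_3. The ratio was 0.454 (0.133 to 1.43) for PA_1 to IVF_1 and 6.55 (0.795 to 301) for PA_1 to PA_3, and both intervals include no change. Without the filter TBX3 was called lower in PA_3 than in IVF_1 (adjusted p = 0.033), whereas PA_1 against IVF_1 (0.51) and PA_1 against PA_3 (0.28) were not called.

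GBX2, a homeobox factor that in mouse is a target of LIF and STAT3, lies on the minus strand of chromosome 15 at 136028865 to 136032117 (ENSSSCG00000016319). GBX2 had 0 and 2 counts in the PA_1 libraries, 1 and 2 in PA_3, and 5 and 2 in IVF_1. The ratio to IVF_1 was 0.195 (95% counting interval 0.0197 to 1.02) for PA_1 and 0.267 (0.0446 to 1.17) for PA_3. These intervals include no change. Without the filter no GBX2 comparison was called, and its adjusted p-values were 0.27, 0.30 and 0.89.

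Its paralog GBX1, a homeobox factor of the developing nervous system, was far above GBX2 and changed strongly. GBX1 had 14.23 and 8.24 TPM in the PA_1 libraries, 1.28 and 1.30 in PA_3, and 25.30 and 26.28 in IVF_1. The 3 lines did not overlap, and the PA_1 libraries lay further apart than those of the other lines. GBX1 was lower in PA_1 than in IVF_1 (log2 fold change -1.20, SE 0.18, adjusted p = 0.00053) and lower still in PA_3 (log2 fold change -4.05, SE 0.23, adjusted p = 1.4e-07). GBX1 was higher in PA_1 than in PA_3 (log2 fold change 2.85, SE 0.23, adjusted p = 5.3e-06). The GBX1 calls held in all 11, 11 and 12 alternatives of these comparisons, with adjusted p-values up to 0.0033, 5.6e-05 and 0.00083.

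**Figure D3:**
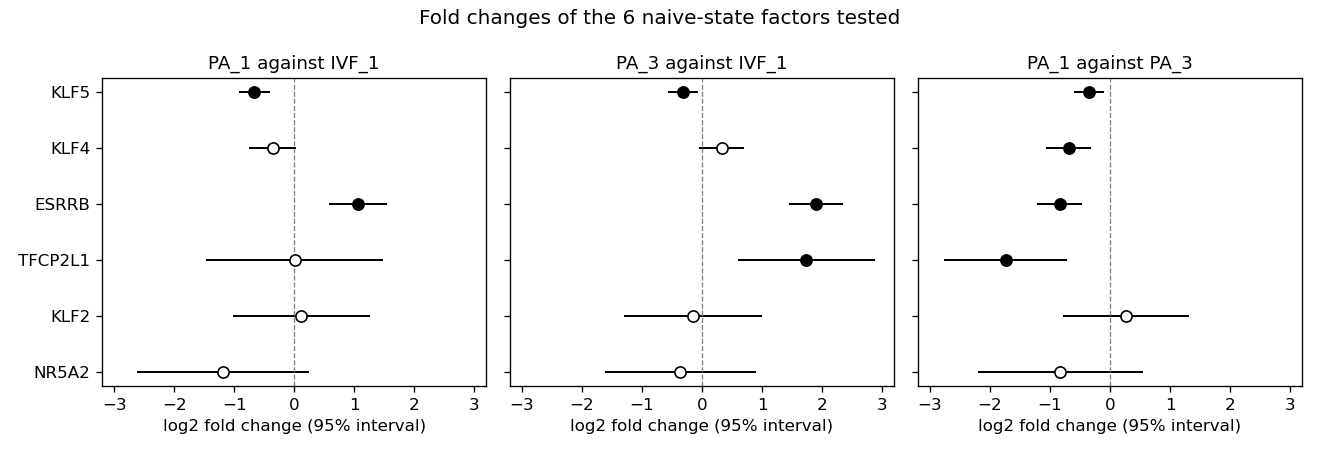
Log2 fold changes of the 6 naive-state factors that passed the filter on low counts, in 3 comparisons of lines (points, edgeR estimates; lines, 95% intervals; filled points, adjusted p under 0.05). ESRRB is at 1.06 and 1.90 against IVF_1, KLF5 is below 0 in each comparison, and the intervals of KLF2 and NR5A2 span 0.

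The number of naive-state factors that passed the test was read against all genes tested. Between PA_1 and IVF_1, 31.4% of genes were called, 15.3% higher and 16.1% lower, and the naive-state factors called were ESRRB (higher) and KLF5 (lower). Between PA_3 and IVF_1, 52.1% of genes were called, 25.9% higher and 26.2% lower, and the factors were ESRRB (higher), KLF5 (lower) and TFCP2L1 (higher), which entered the test only through PA_3. Between PA_1 and PA_3, 36.8% of genes were called, 17.8% higher and 19.0% lower, and KLF4, KLF5 and ESRRB were lower in PA_1, as was TFCP2L1, which entered the test only through PA_3, where it was high. With so many genes called in each comparison, and with 4 of the 10 factors not tested, these counts are no result about the naive-state factors as a group. Between PA_1 and PA_3, KLF2, with a log2 fold change of 0.27, and NR5A2, with -0.83, were not called. The comparisons share libraries, so their values are not independent of each other.

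Among the other KLF and SP genes, 18 of 22 measured could be tested, and changes ran both ways, as over all genes. Against IVF_1, 4 rose and 5 fell in PA_1 (median log2 fold change 0.01) and 3 rose and 6 fell in PA_3 (median -0.17), while all genes tested had a median of 0.00. Over all genes tested 15.3% rose and 16.1% fell in PA_1, and 25.9% rose and 26.2% fell in PA_3. SP6, a factor of epithelial development, was lower in PA_1 (log2 fold change -1.35, SE 0.16, adjusted p = 9.4e-06) and in PA_3 (-1.92, SE 0.17, adjusted p = 1.1e-07). SP1 was lower in PA_3 than in IVF_1 (-0.96, SE 0.081, adjusted p = 6.5e-08) and higher in PA_1 than in PA_3 (0.60, SE 0.081, adjusted p = 2e-05). KLF13 was higher in PA_3 than in IVF_1 (0.87, SE 0.11, adjusted p = 6.4e-06). Between PA_1 and PA_3, 9 were called higher in PA_1 and 5 were called lower, beside 17.8% and 19.0% of all genes tested. KLF8 was among those higher in PA_1 (0.91, SE 0.15, adjusted p = 0.00016). Fewer of the family were called in PA_1 against IVF_1 without PA_1 replicate 1 or either IVF_1 replicate. Leaving out an IVF_1 replicate also gave fewer calls over all genes, whereas leaving out PA_1 replicate 1 did not. Without PA_3 replicate 2 fewer genes were called over all genes. Fewer of the family were then lower in PA_3 than in IVF_1, and fewer were called either way in PA_1 against PA_3. Without PA_1 replicate 2 or PA_3 replicate 1, fewer of the family were lower in PA_1 than in PA_3.

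Of 29 measured relatives of the other naive-state factors, 18 could be tested. Against IVF_1, 2 rose and 7 fell in PA_1 (median log2 fold change -0.18), where 15.3% of all genes rose and 16.1% fell. In PA_3 3 rose and 10 fell (median -0.60), where 25.9% of all genes rose and 26.2% fell. EOMES, the T-box factor of early mesendoderm and trophoblast, was lower in PA_1 (log2 fold change -2.17, SE 0.21, adjusted p = 8.6e-07) and in PA_3 (-3.22, SE 0.23, adjusted p = 9e-09). GRHL2, a grainyhead-like factor of epithelial genes, was lower in PA_1 (-0.65, SE 0.098, adjusted p = 8.5e-05) and in PA_3 (-1.44, SE 0.10, adjusted p = 6.8e-09). The orphan receptor NR2F2 was lower in PA_3 than in IVF_1 (-2.39, SE 0.17, adjusted p = 9.6e-09), and it was higher in PA_1 than in PA_3 (1.70, SE 0.18, adjusted p = 1.1e-06). With an IVF_1 replicate left out, fewer genes were called against IVF_1 over all genes. Fewer relatives were then higher than IVF_1 in PA_1 and in PA_3, and without PA_1 replicate 1 fewer were higher in PA_1. Between PA_1 and PA_3, 9 were higher in PA_1 and 2 were lower, beside 17.8% and 19.0% of all genes tested. The count of those lower was smaller without PA_1 replicate 2, PA_3 replicate 1 or PA_3 replicate 2.

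A larger share of the other genes associated with the naive state reached 1 TPM than of the 10 factors. That list is mixed and includes signalling genes such as STAT3 and SOCS3. Of its 33 symbols 27 were measured, and DPPA3, KHDC3L, ARGFX, SOX15, ALPPL2 and PRAMEF1 matched no single gene. At least 1 TPM was reached by 17 of 27 in PA_1, 18 in PA_3 and 19 in IVF_1, against 3, 3 and 2 of the 10 factors. ZFP42 (REX1), a classic marker of pluripotent cells, averaged 226 TPM in PA_1, 95.1 in PA_3 and 209 in IVF_1. PRDM14, a repressor that guards naive and germ cell pluripotency in mouse, averaged 78.3, 116 and 60.1 TPM. Against IVF_1, 3 of 23 tested rose and 10 fell in PA_1 (median log2 fold change -0.25), where 15.3% of all genes rose and 16.1% fell. In PA_3 4 rose and 12 fell (median -0.28), where 25.9% of all genes rose and 26.2% fell. ZFP42 is named after its values were seen.

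STAT3, the effector of LIF, and its feedback inhibitor SOCS3 were among those that fell. STAT3 was lower in PA_1 than in IVF_1 (log2 fold change -1.12, SE 0.094, adjusted p = 1.6e-07) and in PA_3 (-0.96, SE 0.092, adjusted p = 2.8e-07). SOCS3 was also lower in PA_1 (-0.88, SE 0.12, adjusted p = 2.3e-05) and in PA_3 (-1.21, SE 0.12, adjusted p = 3.2e-07). PDGFA, a ligand of the mouse and human epiblast, was lower in PA_1 (-1.42, SE 0.11, adjusted p = 1.1e-07). PRDM14 was higher in PA_3 than in IVF_1 (1.23, SE 0.075, adjusted p = 1.2e-09) and lower in PA_1 than in PA_3 (-0.87, SE 0.073, adjusted p = 9.6e-08). With an IVF_1 replicate left out, fewer of the list were lower in PA_1 and fewer were higher in PA_3. Fewer genes were then called over all genes too.

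Regulators and cofactors of the network were well expressed, with a median of 36.5 TPM in PA_1, 27.2 in PA_3 and 38.7 in IVF_1. The lists share genes: OTX2, ETV5, FOXD3 and TCF7L1 are also on the formative and primed list, and STAT3 and PRDM14 on that of other naive-state genes. TCF7L1, the repressor of ESRRB and TFCP2L1 in mouse, averaged 199, 205 and 224 TPM, far above either gene. NCOA3, a coactivator used by ESRRB in mouse, averaged 37.5, 27.6 and 24.9 TPM. Both were chosen after their values were seen. Against IVF_1, 5 of 28 rose and 9 fell in PA_1, where 15.3% of all genes rose and 16.1% fell. In PA_3 6 rose and 11 fell, where 25.9% of all genes rose and 26.2% fell. The MYC family gene MYCN was lower in PA_1 than in IVF_1 (log2 fold change -1.04, SE 0.078, adjusted p = 4.5e-08), and so was ID1, a target of BMP signalling (-1.0, SE 0.087, adjusted p = 2.7e-07). NANOG was lower in PA_3 than in IVF_1 (-2.83, SE 0.13, adjusted p = 6.3e-11), and so was the corepressor TLE4 (-1.19, SE 0.081, adjusted p = 5e-09). NANOG was higher in PA_1 than in PA_3 (1.51, SE 0.13, adjusted p = 2.6e-07). Between these lines 8 of the list were higher in PA_1 and 11 were lower, beside 17.8% and 19.0% of all genes tested. These counts moved with single libraries. More rose in PA_1 without PA_1 replicate 1, and fewer without IVF_1 replicate 1. Fewer fell in PA_3 without PA_3 replicate 2 or IVF_1 replicate 2. Without PA_3 replicate 2, fewer were called either way in PA_1 against PA_3. Leaving out an IVF_1 or PA_3 replicate also gave fewer calls over all genes.

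Formative and primed factors were far above the naive-state factors. Their median was 40.0 TPM in PA_1, 29.1 in PA_3 and 29.8 in IVF_1, against 0.0825, 0.165 and 0.253 TPM for the 10 naive-state factors. At least 1 TPM was reached by 19, 19 and 20 of 21, and 16, 14 and 15 of 21 were above KLF5, the most abundant naive-state factor. OTX2, which directs exit from the naive state in mouse, averaged 337, 386 and 307 TPM. Against IVF_1, 6 rose and 6 fell in PA_1, and 7 rose and 7 fell in PA_3. Without IVF_1 replicate 1 fewer of the list rose in PA_1, and fewer genes were called over all genes. Of this list 19 could be tested. Over all genes tested the split was as even, with 2326 (15.3%) higher and 2440 (16.1%) lower in PA_1 and 3937 (25.9%) higher and 3983 (26.2%) lower in PA_3. ETV4, a target of FGF signalling, was lower in PA_1 than in IVF_1 (log2 fold change -1.69, SE 0.12, adjusted p = 3.3e-08) and in PA_3 (-1.92, SE 0.12, adjusted p = 2.5e-09). POU3F1 (OCT6), a formative factor, was higher in PA_1 than in IVF_1 (0.95, SE 0.12, adjusted p = 1.5e-05).

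**Figure D4:**
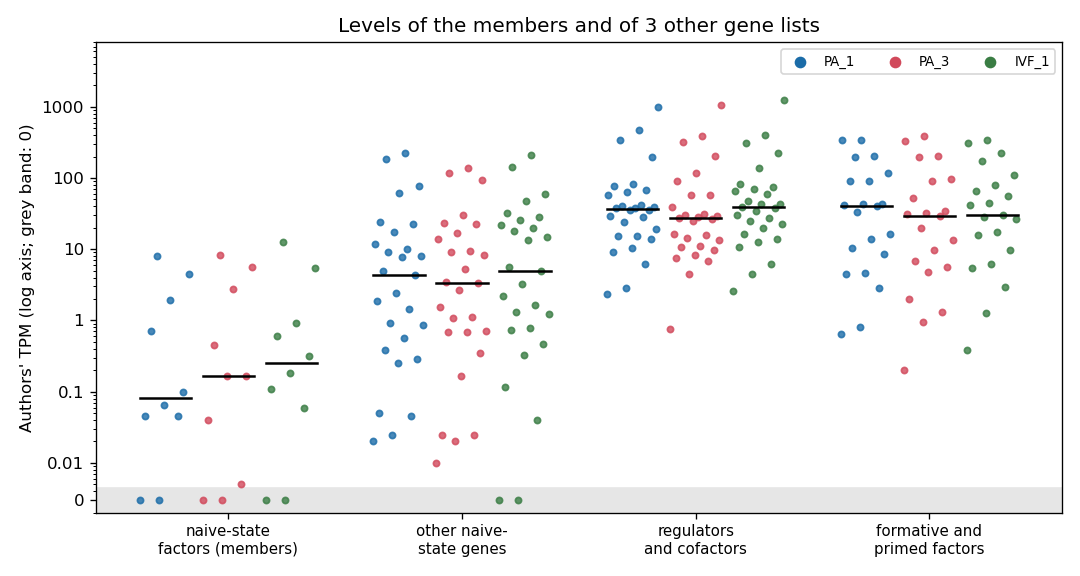
Mean level of each gene in each line for the 10 naive-state factors and 3 other gene lists, in authors' TPM on a log axis with 0 in the grey band (points, genes, coloured by line; bars, medians over each list). The median of the naive-state factors is 0.0825 to 0.253 TPM and that of the formative and primed factors 29.1 to 40.0 TPM. The 3 other lists share some genes.

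For each of the 6 factors that passed the filter, the 2 genes with the most similar profile were sought among 10441 genes of at least 5 CPM. Likeness was the Euclidean distance between log2(CPM + 1) values centred over the 6 libraries, a scale that compresses the low factors. Nearest to KLF5 were CNN1, a calponin of smooth muscle (distance 0.0899), and S100A10, a calcium-binding protein family member (0.104). CNN1 had 21.7 and 23.5 CPM in the PA_1 libraries, 27.2 and 30.1 in PA_3, and 35.6 and 34.4 in IVF_1, the same order of lines as KLF5. Nearest to ESRRB were ARL9 (0.154) and LY6E (0.177), and LY6E had 21.1 and 18.8 CPM in the PA_1 libraries, 30.3 and 33.1 in PA_3, and 11.4 in each IVF_1 library. Nearest to KLF4 were ACTN3 (0.195) and CCNJL (0.211), nearest to TFCP2L1 were RGS14 (0.0951) and CD59 (0.132), nearest to KLF2 were OBI1 (0.0866) and LRRN1 (0.122), and nearest to NR5A2 were TRUB2 (0.211) and ARHGEF26 (0.249). These distances are descriptions over 6 libraries.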

How the data were processed

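Reads were trimmed with cutadapt 2.8 and aligned with STAR 2.7.1a to Sscrofa11.1, per the submitters' processing notes. The sources used here do not give the counter, its annotation release or its strand setting, so reads shared with antisense genes or near-identical copies cannot be told apart. No gene model overlapped any of the 10 genes. The deposited table holds read counts per gene, and the authors' RPKM and TPM, both scaled by gene length. Counts were used for tests, TPM for levels between genes, and RPKM to check the order. The table holds 54 more per-sample columns that were not used.

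Symbols came from the table for 16698 genes, NCBI gene IDs for 1420 and gene ID tables for 167, and 13623 had none. Symbols without a match, such as SOX2, SALL4 and DPPA3, were not analysed here. The members and gene lists were chosen with earlier results of these data known. From each list up to 3 genes of smallest adjusted p per comparison could be named.

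Tests used edgeR 4.0.16 (robust quasi-likelihood, TMM, two-sided) in R 4.3.3 on 6 libraries with 1 coefficient per line and 3 residual degrees of freedom. The spread of each gene was drawn toward that of all genes, with a median of 13.9 prior degrees of freedom. The p-values thus rest more on spread shared between genes than on a gene's own libraries. The filter filterByExpr (0.47 CPM in 2 libraries) kept 15197 genes, 6 of the 10 among them. Genes were called at an adjusted p under 0.05, and the biological coefficient of variation was 6.1%. Intervals are 95%, exact Poisson or binomial for counts. The procedure was tested on simulated counts with the same spread for every gene and changes only in genes above 5 CPM. That test does not cover the low factors. Alternatives were DESeq2 1.42.0 (Wald test), its size factors in edgeR, limma-voom (limma 3.58.1), no filter, only the compared lines, a replicate block, each library left out, and 2 added after seeing the data: no mitochondrial genes, and a crossed block for PA_1 against PA_3. Libraries of a line differed beyond counting noise (chi-square per gene 11.6, 4.3 and 2.78 in PA_1, PA_3 and IVF_1).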

Additional observations from a re-analysis of the deposited data

Results flagged for a closer look

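KLF4, KLF5, ESRRB and TFCP2L1 are listed because they were called in PA_1 against PA_3, which compares their differences from IVF_1. The values below come from that same call and are no further test. The difference between the effects, tested in edgeR as PA_1 against PA_3, was -0.84 on the log2 scale for ESRRB (adjusted p = 0.0011), -0.69 for KLF4 (0.0036), -0.35 for KLF5 (0.023) and -1.74 for TFCP2L1 (0.009). ESRRB was higher than in IVF_1 in both parthenogenetic lines and more so in PA_3, and KLF5 was lower in both and more so in PA_1. In the edgeR fit KLF4 lay on opposite sides of IVF_1 in PA_1 and PA_3 without passing the test in either. By TPM the KLF4 libraries of PA_3 and IVF_1 overlapped. TFCP2L1, which passed the filter on low counts only through PA_3, where it was high, had 12 counts in PA_1 against 8 in IVF_1. With DESeq2 the PA_1 against PA_3 calls of KLF5 (adjusted p = 0.083) and TFCP2L1 (0.13) were lost. The calls of KLF4, KLF5 and TFCP2L1 between PA_1 and PA_3 were lost without PA_3 replicate 2, when their adjusted p-values were 0.051, 0.22 and 0.13, and that of ESRRB was not.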

How the results depend on the processing

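ESRRB kept its direction and call in all 3 comparisons, and KLF5 did in PA_1 against IVF_1, under every alternative run. With DESeq2, 2 factors rather than 4 were lower in PA_1 than in PA_3, and in PA_3 against IVF_1 1 rather than 2 was higher and 0 rather than 1 lower. Over all genes DESeq2 also called fewer than the main fit. It called 3386 rather than 4766 in PA_1 against IVF_1 and 6323 rather than 7920 in PA_3 against IVF_1. In PA_1 against PA_3 it called 4109 rather than 5595. With no filter, 2 factors were lower in PA_3 than in IVF_1. Leaving out each library gave 1 to 2 lower for PA_1 against IVF_1, 1 to 4 lower for PA_1 against PA_3, and 1 to 2 higher and 0 to 1 lower for PA_3 against IVF_1. The genes called then ran from 2307 to 5812 for PA_1 against IVF_1 and from 3406 to 6496 for PA_1 against PA_3. The value of KLF2 in PA_1 against IVF_1 turned to -0.04 with limma-voom and -0.50 without PA_1 replicate 2 (0.70 at most), and that of TFCP2L1 to -0.07 with limma-voom, -0.05 without IVF_1 replicate 1 and -0.29 without PA_1 replicate 2 (0.37 at most). KLF2 turned to -0.35 and -0.02 in PA_1 against PA_3 without PA_1 or PA_3 replicate 2 (0.85 at most), and to 0.14 in PA_3 against IVF_1 without PA_3 replicate 2 (-0.48 at the lowest). NR5A2 turned to 0.46 and 0.09 in PA_3 against IVF_1 without IVF_1 replicate 2 or PA_3 replicate 1 (-1.07 at the lowest). None of these was called, and the causes were not tested. The order by TPM in PA_1 replicate 1 alone kept 6 of 10 positions.

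Same-numbered replicates did not deviate together (r of -0.14, 0.09 and -0.08). Such values cannot exclude a weak pairing, and the labels do not state whether the numbers pair the libraries. With a replicate block the genes called were 4677, 7798 and 5461 in PA_1 against IVF_1, PA_3 against IVF_1 and PA_1 against PA_3. A crossed replicate block fitted to the PA_1 and PA_3 libraries alone gave 6189, against 4929 in the same libraries without it, and the same 4 factors were lower. Leaving out mitochondrial genes gave 4738, 7897 and 5592. No factor's call changed under either block or without mitochondrial genes. Low counts limit KLF2, TFCP2L1, NR5A2, TBX3 and GBX2, whose 6 libraries together held 12 to 68 counts. For the KLF and SP list, DESeq2 gave 1 higher and 3 lower rather than 4 and 5 in PA_1 against IVF_1 and 5 and 2 rather than 9 and 5 in PA_1 against PA_3. For the same list limma-voom gave 2 higher in PA_1 against IVF_1, and only the lines compared gave 2 lower in PA_1 against PA_3. For the relatives, DESeq2 gave 1 higher against IVF_1 in each parthenogenetic line rather than 2 and 3, and both DESeq2 and only the lines compared gave 0 rather than 2 lower in PA_1 against PA_3. For the regulators, only the lines compared gave 10 rather than 6 higher in PA_3 against IVF_1.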
